A study of Mus musculus with 16 samples.

Results

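Neuropeptide precursor RNAs were examined in celiac ganglia and tumors of the Th-MYCN mouse for 10 genes: Npy, Vip, Sst, Gal, Tac1, Cartpt, Penk, Calca, Adcyap1 and Nts. They were taken by symbol from the tables of 24411 genes, and all 10 were found there. Whole-tissue RNA-Seq was available for 16 libraries in 5 groups. Of these, 12 libraries were celiac ganglia of 2-week-old mice: 4 without the transgene and wild-type for Runx1t1, 3 without the transgene and heterozygous for Runx1t1, 3 homozygous for MYCN and wild-type for Runx1t1, and 2 homozygous for MYCN and heterozygous for Runx1t1. The other 4 libraries were tumors homozygous for MYCN and wild-type for Runx1t1, for which the labels give no age. Ganglia without the transgene, labelled MYCN wild-type, are called transgene-free below, and those homozygous for it are called MYCN ganglia.

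The Th-MYCN transgene places human MYCN under the tyrosine hydroxylase promoter, which is active in sympathetic lineage cells, and the line is a 129/SvJ backcross. The Runx1t1 heterozygotes carry 1 insertionally inactivated allele from a line of another strain (CBB6), which was crossed with the Th-MYCN line. The strain make-up of each library is not given in the sources used here. Neuropeptides are made as larger precursors, cut by prohormone convertases and stored in large dense-core vesicles, from which they are released beside the small-molecule transmitter. Most sympathetic neurons are noradrenergic and contain neuropeptide Y, while a smaller cholinergic class is known for vasoactive intestinal peptide and calcitonin gene-related peptide. Celiac ganglia supply the gut and its vessels, and their subpopulations are classically told apart by neuropeptide Y and somatostatin.

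Runx1t1, the targeted gene, was measured first. Its level was 2.78 to 4.41 TPM (a level scaled for transcript length and library size) in the 4 wild-type and 4.36 to 6.28 TPM in the 3 het-labelled transgene-free ganglia. In MYCN ganglia it was 70.3, 7.90 and 37.4 TPM in the wild-type libraries and 8.83 and 16.9 TPM in the het-labelled ones. The groups overlapped in both cases, so the RNA level did not separate the Runx1t1 labels. Libraries held 10692299 to 38618757 counts, and both het-labelled MYCN ganglia were among the 6 under 20000000. Depth went with library number in the ganglia. Those numbered 1 or 2 held at most 14221960 counts, and those numbered 3 or 4 held at least 24873952. Every tumor held at least 27096032. Replicate 2 of the transgene-free wild-type ganglia stood apart: its 4 lymphocyte markers summed to 473.5 TPM against at most 5.79 in any other library, and its 9 pan-neuronal genes summed to 6927 TPM, the lowest of the 12 ganglia. The labels do not tie libraries to individual animals, so the p-values below measure the spread between libraries.

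Promoter letters are shown for members that hold the cyclic AMP response element, a DNA element bound by CREB-family factors and known from the somatostatin gene, or its shorter core. Windows from 250 bases before to 50 after each RefSeq start (GRCm38.p6) were found for 9 of the 10 genes, all but Penk. The palindrome TGACGTCA was present in 2 of them, Sst and Cartpt, against 1.79% of the 32851 promoter windows searched. The core TGACG, read on either strand and also contained in the palindrome, was present in 8 genes against 20.8% of all windows, and the E-box CACGTG was present in Tac1 alone against 7.15%. Npy held none of these letters in its window. Stretches of 30 bases follow, on the gene's strand with the match in capitals, for the 2 genes with the palindrome and the 3 others with a core on that strand before the start.
Sst: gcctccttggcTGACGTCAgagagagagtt
Cartpt: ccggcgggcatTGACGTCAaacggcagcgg
Vip: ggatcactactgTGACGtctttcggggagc
Adcyap1: ggactaggatgcTGACGtcttttactgata
Calca: gaagcacagaggTGACGcaatctgtctggg
The Sst stretch lies at chr16:23890874-23890903 on the minus strand, and its match begins 48 bases before the start. The Cartpt stretch lies at chr13:99900777-99900806 on the minus strand, with the match 112 bases before the start. The others are Vip at chr10:5639127-5639156 and Adcyap1 at chr17:93198914-93198943, both on the plus strand, and Calca at chr7:114636405-114636434 on the minus strand. These matches are letters in a window and no binding was measured. Of the 2 genes that share the palindrome, Sst fell and Cartpt rose in tumors, as described below.

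In transgene-free ganglia, Npy RNA exceeded that of every other member by an order of magnitude. Npy (chr6:49822710-49829507, plus strand) encodes neuropeptide Y, the vasoconstrictor co-transmitter of noradrenergic neurons. It measured 5468, 1961, 2917 and 5266 TPM in the 4 wild-type and 4545, 5122 and 3175 TPM in the 3 het-labelled libraries, which placed it between the 7th and the 53rd most abundant gene of a library. Its mean over the 7 was 4065 ± 1372 TPM (SD, n = 7), and the lowest value came from the library with lymphocyte markers. Npy made up 86.4% to 95.4% of the summed TPM of the 10 genes in these 7 ganglia.

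Gal came next with a mean of 222.6 ± 127 TPM (SD, n = 7), followed by Sst with 83.2 ± 46.6, Vip with 28.2 ± 28.8, Penk with 20.1 ± 13.3 and Cartpt with 8.80 ± 6.64. Calca averaged 3.07 ± 2.71 TPM, Nts 0.951 ± 1.01 and Adcyap1 0.534 ± 0.479, and single libraries were at 0 for each of them. Tac1, which encodes substance P, had 1 count in 1 of the 12 ganglia and 1 count in 1 of the 4 tumors. Where a group's libraries held no Tac1 count, the 95% counting interval reached 0.0428 CPM (counts scaled to library size) over the transgene-free wild-type group. Over the het-labelled MYCN group it reached 0.136 CPM. These intervals cover counting error only. Within each of the 7 libraries Npy exceeded Gal, Gal exceeded Sst and Sst exceeded Vip. Lower down the order was less even, with Vip above Penk in 4 of 7 libraries and Penk above Cartpt in 5 of 7.

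**Figure D1:**
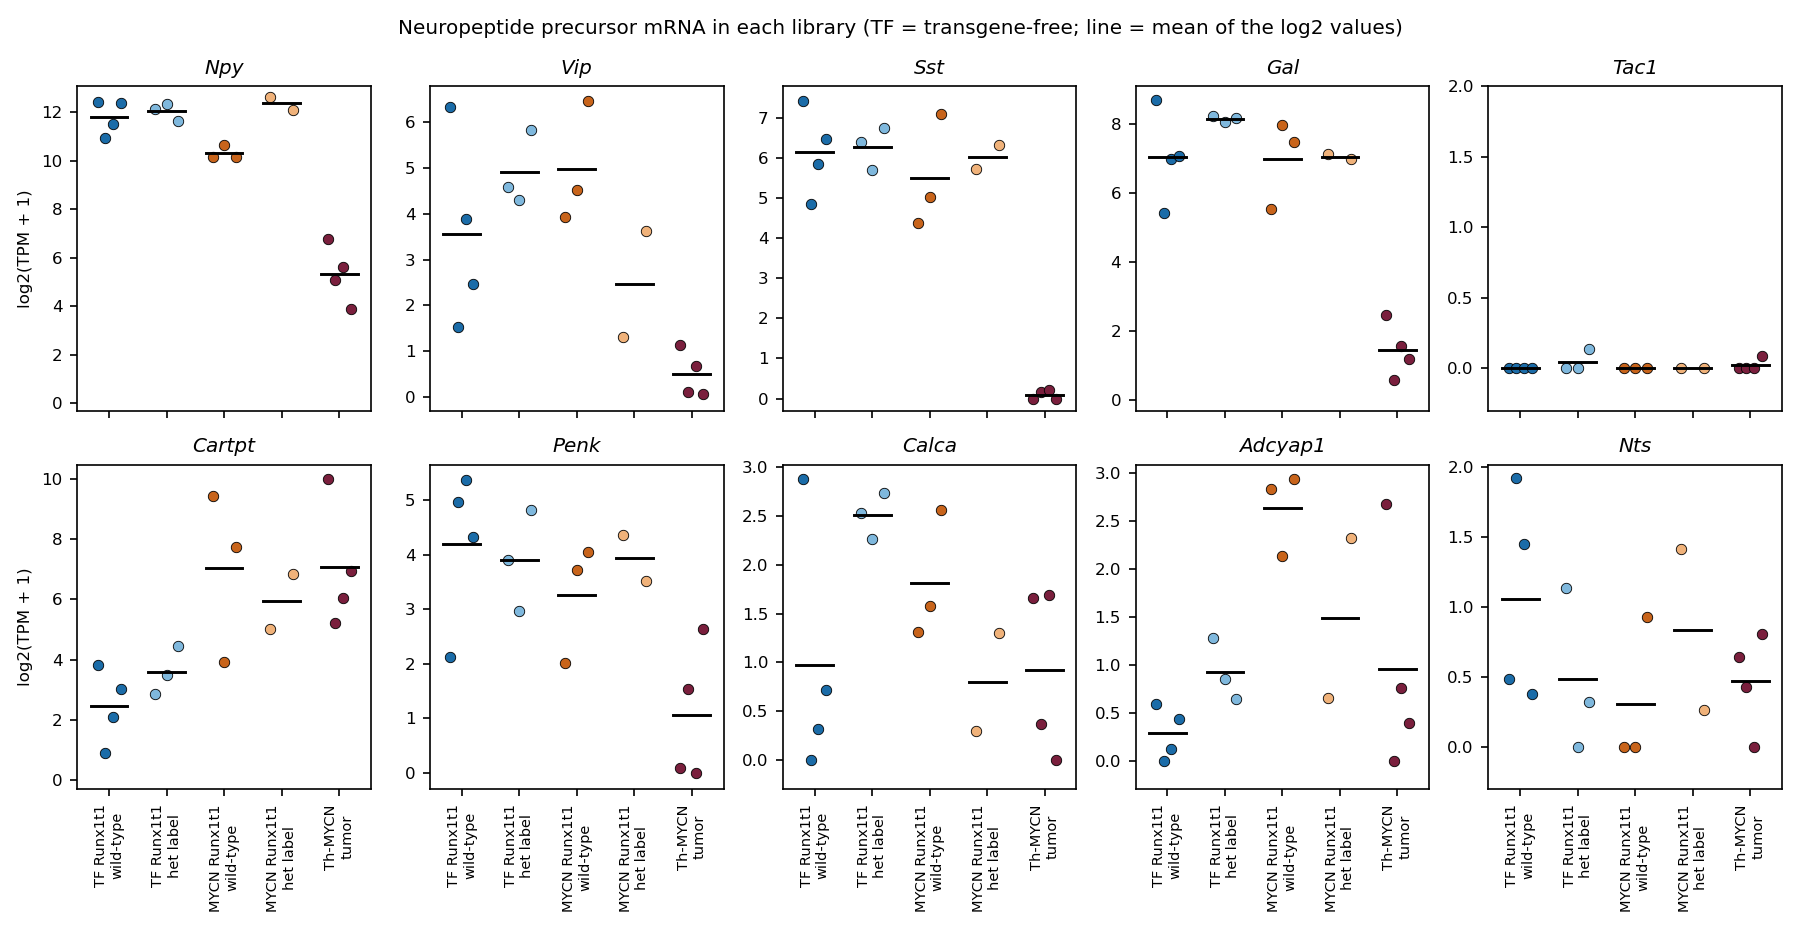
Each panel plots 1 gene on its own axis as log2(TPM + 1), with 1 point per library and a line at the mean of the log2 values, for the 5 groups (TF, transgene-free). Npy, Vip, Sst and Gal lie lower in the 4 tumors than in any of the 12 ganglia, Cartpt lies higher in every tumor than in any transgene-free ganglion, and Tac1 is at or near 0 throughout.

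The tumors were compared with the 7 transgene-free ganglia to ask which peptide RNAs the malignant tissue keeps. Npy, Gal, Sst, Vip and Penk fell, and Cartpt rose. These 6 were called at an adjusted p under 0.05 by edgeR's quasi-likelihood test among 9 members tested, Tac1 having too few counts. Over all 16665 genes, 61.4% were called in this comparison, 30.9% lower and 30.6% higher in tumors, so a call here is common. The median log2 fold change was -2.95 over the 9 members, which is that of Penk and does not depend on the fitted value of any gene near 0, and -0.0564 over all genes. In bulk tissue, fewer cells of a type and less RNA per cell cannot be told apart.

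Npy measured 108.3, 33.1, 48.0 and 13.9 TPM in the 4 tumors, and each of these lies under the lowest ganglion. Its log2 fold change against transgene-free ganglia was -5.83 ± 0.561 (SE), a 57.1-fold difference (edgeR adjusted p = 2.19e-06). Its place among all genes moved to between 1198 and 7499 in the tumors. Relative to Dbh, the dense-core vesicle enzyme that makes noradrenaline, Npy stood at 1.09 to 1.66 TPM per TPM in transgene-free ganglia and at 0.316 to 0.634 in tumors. Relative to Th, tyrosine hydroxylase, the ratio was 2.11 to 3.03 in those ganglia and 0.0255 to 0.631 in tumors. Both ratios were chosen after the values were seen, and neither overlapped between these groups, so Npy differed by more than both enzymes did.

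Gal (chr19:3409915-3414544, minus strand), which encodes galanin, a peptide known to rise in injured sympathetic neurons, measured 411.6, 42.1, 124.6 and 133.0 TPM in wild-type and 300, 262.0 and 284.5 TPM in het-labelled transgene-free ganglia. Tumors held 4.55, 0.49, 1.97 and 1.29 TPM. Every tumor lay well under the lowest ganglion, and the log2 fold change was -6.30 ± 0.788 (SE), 78.9-fold lower in tumors (edgeR adjusted p = 1.38e-05). Gal per Npy was 0.0148 to 0.0927 in the tumors and 0.0215 to 0.0896 in these ganglia, ranges that overlap.

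Sst (chr16:23889573-23890958, minus strand) encodes somatostatin, an inhibitory peptide of sympathetic and enteric neurons. It measured 170.4, 28.0, 56.6 and 87.3 TPM in wild-type and 82.8, 50.6 and 106.9 TPM in het-labelled transgene-free ganglia. In tumors it was at the limit of detection, with 1 count in replicate 2, 1 in replicate 3 and none in the other two. The pooled level was 12.8 CPM in transgene-free ganglia and 0.016 CPM in tumors, a ratio of 799 with a 95% counting interval of 221 to 6590 (edgeR adjusted p = 3.13e-06). That interval covers counting error only.

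Vip (chr10:5639218-5647617, plus strand) encodes vasoactive intestinal peptide, a vasodilator and marker of cholinergic sympathetic neurons. Transgene-free ganglia varied widely, at 79.8, 1.89, 13.9 and 4.51 TPM in wild-type and 23.1, 18.8 and 55.6 TPM in het-labelled libraries. Tumors held 1.19, 0.07, 0.59 and 0.04 TPM, all below the lowest ganglion of any group on the TPM scale. The log2 fold change was -5.51 ± 1.29 (SE), 45.7-fold lower (edgeR adjusted p = 0.00208).

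Penk (chr4:4133531-4138819, minus strand) encodes proenkephalin, the source of the opioid enkephalins. It measured 3.36, 30.1, 40.5 and 19.0 TPM in wild-type and 14.0, 6.81 and 27.2 TPM in het-labelled transgene-free ganglia, against 0.06, 1.89, 0 and 5.23 TPM in tumors, so that tumor 4 exceeded 1 ganglion. Its log2 fold change of -2.95 ± 1.10 (SE) passed the threshold narrowly (edgeR adjusted p = 0.0311), and it did not pass when only the compared groups were fitted (0.0584), in libraries over 20000000 counts (0.0568), or without tumor 1 (0.0578), tumor 2 (0.0622), the wild-type transgene-free replicate 3 (0.0507) or the het-labelled transgene-free replicate 4 (0.0622), with a range of 0.00884 to 0.0622 over all single libraries left out. Penk overlaps an unrelated non-coding transcript, A830012C17Rik, on the other strand, and the sources do not state whether counting used strand. The 3 genes nearest to it in pattern, by the distance described below, were Col6a3, Ddr2 and Tnxb, which encode a matrix collagen, a collagen receptor and a matrix protein of connective tissue. These names are not stable. With a pseudocount (the value added to TPM before the logarithm) of 0.1 in place of 1, none of them stayed among the nearest 3. The fibroblast markers also fell in tumors, as given below. Whether connective tissue cells have a part in the Penk difference was not tested.

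Cartpt (chr13:99898489-99901091, minus strand) encodes the CART peptide, known from preganglionic sympathetic and enteric neurons. It measured 13.2, 0.88, 3.27 and 7.17 TPM in wild-type and 6.22, 10.2 and 20.7 TPM in het-labelled transgene-free ganglia. Tumors held 1021, 36.5, 65.5 and 120.8 TPM, and none overlapped those ganglia. The share of all genes with that pattern was not counted, and 30.6% of all genes were called higher in tumors. The log2 fold change was 5.62 ± 1.08 (SE), 49.2-fold higher in tumors (edgeR adjusted p = 0.000463). Tumor 1 was far above the rest, and without it the log2 fold change was 3.56 and still past the threshold. In every tumor Cartpt was the most abundant of the 10 RNAs, with 50.1% to 89.3% of their summed TPM against at most 0.563% in transgene-free ganglia.

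**Figure D2:**
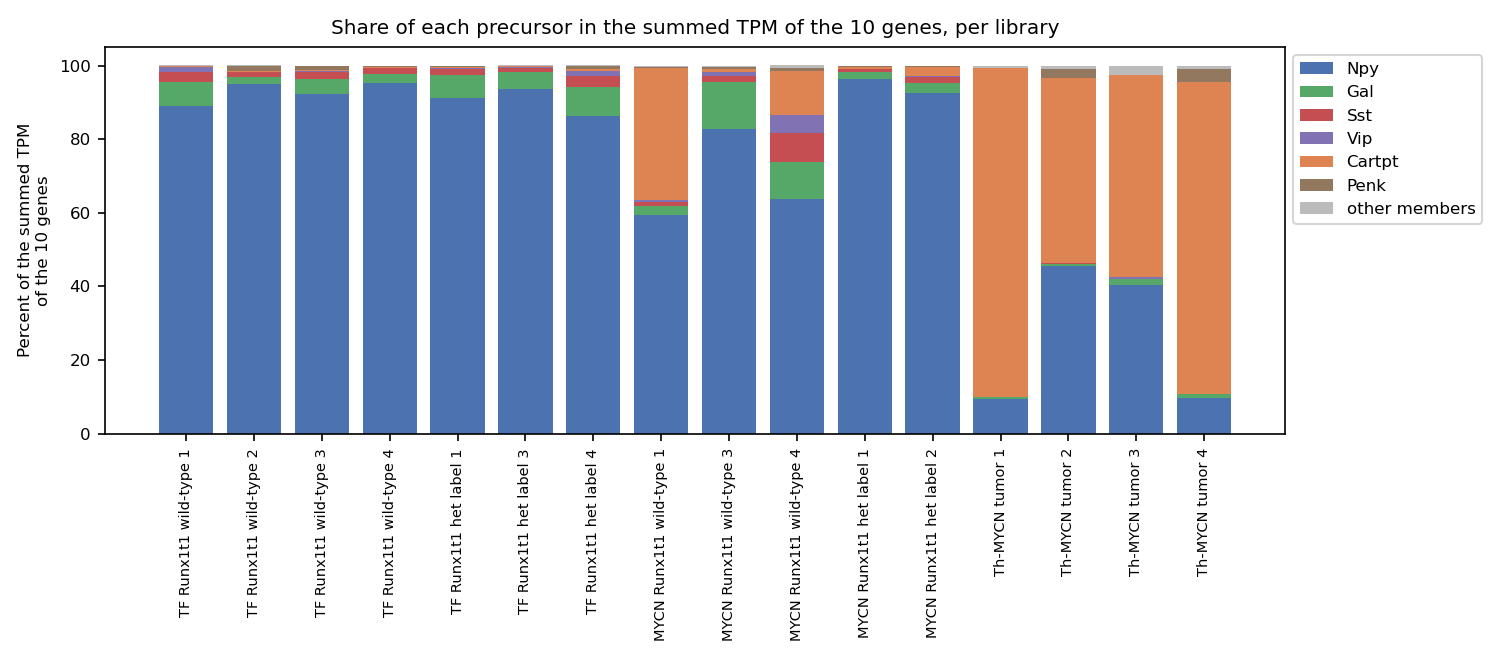
Each bar is 1 library, divided into the percent that each gene contributes to the summed TPM of the 10 genes. Npy fills 86.4% to 95.4% in transgene-free (TF) ganglia and Cartpt fills 50.1% to 89.3% in tumors; the summed TPM itself, which the bars do not show, was 2067 to 6154 and 72.8 to 1144, respectively.

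The 3 other members tested did not pass the threshold in tumors. Calca, whose gene gives calcitonin and calcitonin gene-related peptide, was at 0 to 6.36 TPM in transgene-free ganglia and 0 to 2.22 TPM in tumors, with a log2 fold change of -0.96 ± 1.16 (edgeR adjusted p = 0.488). Adcyap1, which encodes PACAP, the peptide of preganglionic input, was at 0 to 1.42 TPM and 0 to 5.42 TPM, with a log2 fold change of 2.21 ± 1.06 (edgeR adjusted p = 0.0842). Its tumor value rests on 1 library: without tumor 1 the log2 fold change was -0.07, and without tumor 2, where it was at 0, it was 2.63 and past the threshold (0.0201, in a range of 0.0201 to 0.958 over single libraries left out). Nts, which encodes neurotensin, was at 0 to 2.78 TPM and 0 to 0.75 TPM, with a log2 fold change of -0.38 ± 1.25 (edgeR adjusted p = 0.809). Counts of these genes were at most 55 in a transgene-free ganglion, and the standard errors leave room for differences of either sign in Calca and Nts.

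Compared with MYCN ganglia that are wild-type for Runx1t1, from which such tumors arise in this model, 4 of the 9 members were called, all lower in tumors: Npy, Vip, Sst and Gal. Of all genes, 34.5% were called in that comparison and 20.5% were lower. Against the 2 het-labelled MYCN ganglia, Npy, Sst and Gal were called, where 45.5% of all genes were called and 23.5% were lower. In TPM, all 4 of these RNAs lay lower in each tumor than in each of the 12 ganglia, a pattern that 24.5% of all genes share. For Vip this did not hold in CPM. Tumor 1 was at 0.893 CPM (23 counts) and het-labelled MYCN replicate 1 at 0.774 CPM (11 counts). The 3 comparisons share the tumor libraries, so their results are not independent of each other.

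Npy was 1130.1, 1606 and 1126 TPM in the wild-type and 6386 and 4322 TPM in the het-labelled MYCN ganglia. Its log2 fold change in tumors was -4.24 ± 0.547 (edgeR adjusted p = 9.18e-05) against the wild-type group and -6.14 ± 0.610 (6.42e-06) against the het-labelled one. Gal, at 44.9, 249.0 and 178.4 and at 138.0 and 124.6 TPM in the same libraries, gave -5.85 ± 0.806 (edgeR adjusted p = 0.000154) and -5.47 ± 0.826 (0.000173). Sst, at 19.7, 31.3 and 135.8 and at 51.9 and 78.5 TPM, passed in both as well (edgeR adjusted p = 2.41e-05 and 1.69e-05).
Vip, at 14.2, 21.8 and 87.8 and at 1.49 and 11.3 TPM, gave -6.07 ± 1.38 (edgeR adjusted p = 0.00429) against the wild-type group and -3.33 ± 1.38 (0.0630) against the het-labelled one. The second value is not past the threshold, though both het-labelled libraries lie above all tumors in TPM. It passed with DESeq2 on all libraries (-3.32, DESeq2 adjusted p = 0.0223), and with edgeR without the transgene-free wild-type replicate 1 (0.0301), without the lymphocyte-rich replicate 2 of that group (0.0426) and without tumor 1 (0.0371), in a range of 0.0301 to 0.669 over single libraries left out.
Cartpt, at 682, 14.3 and 209.3 and at 31.6 and 112.5 TPM, lay within the tumor range or below it. Its log2 fold change in tumors was 0.39 ± 1.18 against the wild-type MYCN ganglia (edgeR adjusted p = 0.818) and turned to -1.67 without tumor 1.

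**Figure D3:**
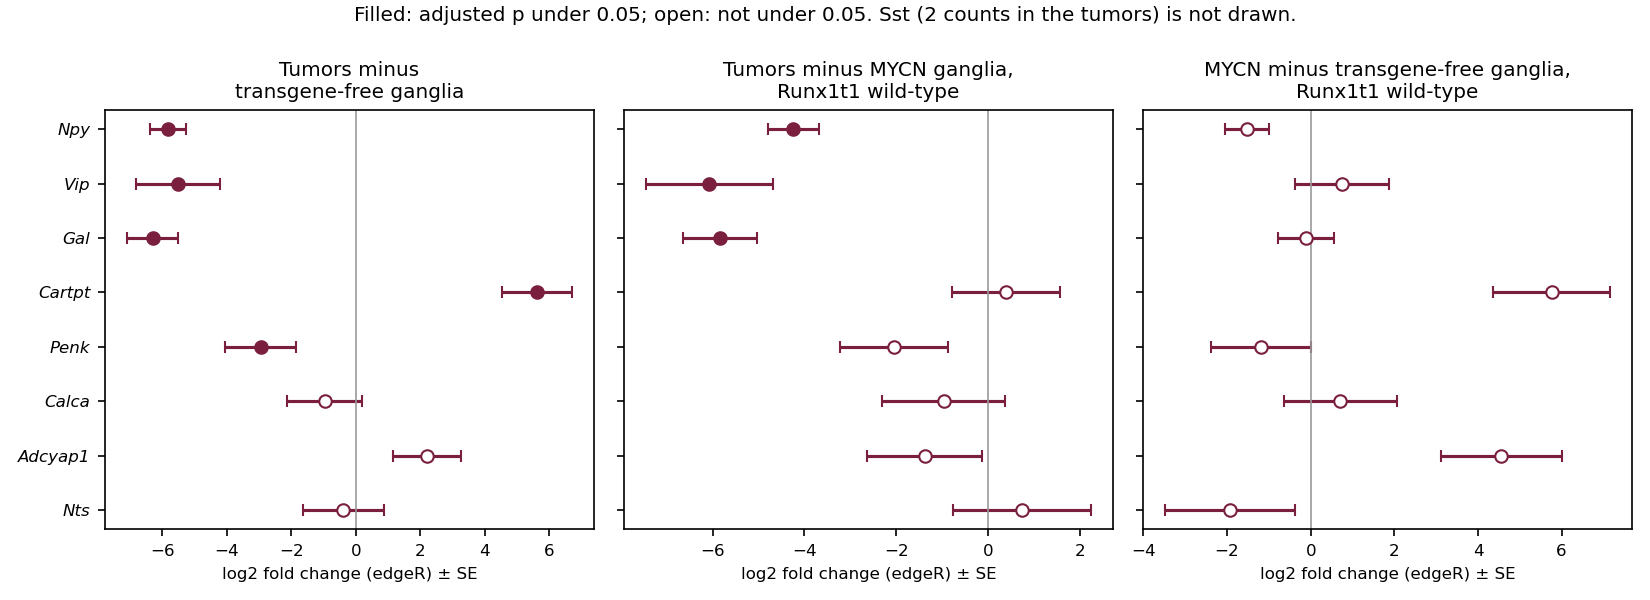
Points are edgeR log2 fold changes with bars of 1 standard error for 8 members in 3 comparisons; filled points have an adjusted p under 0.05, and Sst, with 2 counts in the tumors, is left out. Npy, Vip and Gal are filled and negative in both tumor comparisons, Cartpt is filled and positive against transgene-free ganglia only, and no point is filled in the comparison of MYCN with transgene-free ganglia.

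Among 2-week-old ganglia the transgene and the Runx1t1 genotype gave no call for any of the 9 members. In the comparison of 5 MYCN with 7 transgene-free ganglia 7 genes of all tested, 0.042%, were called. With wild-type Runx1t1 alone, 0.936% of all genes were called. For het-labelled MYCN against het-labelled transgene-free ganglia the share was 0% (0 genes by edgeR, 242 at an unadjusted p under 0.05, 14 by DESeq2), and for het-labelled against wild-type transgene-free ganglia also 0% (687 at an unadjusted p under 0.05, 5 by DESeq2). Het-labelled against wild-type MYCN ganglia gave 0.012%, and the interaction of transgene and Runx1t1 genotype gave 0% (937 at an unadjusted p under 0.05, 31 by DESeq2). DESeq2 called 1 member, Cartpt, for MYCN against transgene-free ganglia, where it called 2.14% of all genes, and 3 members, Npy, Cartpt and Adcyap1, with wild-type Runx1t1 alone, where it called 7.71%, and 0 in the other comparisons of ganglia. At an unadjusted p under 0.05, edgeR had 2 members in the first of these (9.44% of all genes) and 3 in the second (19.8%). It had 1 for het-labelled against wild-type MYCN ganglia (12.6%) and 1 in the interaction (5.62%), both Npy, and 0 in the other two.

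Npy was lower in each of the 3 wild-type MYCN ganglia than in any of the 7 transgene-free ganglia, and 2.56% of all genes show that pattern. The log2 fold change against wild-type transgene-free ganglia was -1.53 ± 0.526 (unadjusted p = 0.0114, edgeR adjusted p = 0.142). Both het-labelled MYCN ganglia lay above all 3 wild-type ones, which 20.9% of all genes do, with a log2 fold change of 1.90 ± 0.595 (unadjusted p = 0.00665, edgeR adjusted p = 0.300). The difference between the 2 transgene effects, tested as the interaction, was 1.78 ± 0.783 on the log2 scale (unadjusted p = 0.0395, edgeR adjusted p = 0.845). None of these values passed the adjusted threshold, so the separation seen in the plotted levels was not established over all genes tested. Npy per Dbh was 1.25, 0.759 and 0.699 in the wild-type and 1.5 and 1.6 in the het-labelled MYCN ganglia.

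Cartpt was the member with the largest fitted difference between MYCN and transgene-free ganglia. Its log2 fold change was 4.11 ± 1.00 over both Runx1t1 genotypes (unadjusted p = 0.00112, edgeR adjusted p = 0.146) and 5.76 ± 1.39 with wild-type Runx1t1 (unadjusted p = 0.00101, edgeR adjusted p = 0.0599). In 4 of the 5 MYCN ganglia it exceeded all transgene-free ones, while wild-type replicate 3, at 14.3 TPM, lay among them. Without that library Cartpt passed in both comparisons (0.0164 and 0.00808), and without tumor 1 it passed in the second (0.0483). Over all single libraries left out, the adjusted p ranged from 0.0164 to 0.994 and from 0.00808 to 0.427. No member lay higher in every MYCN ganglion than in all transgene-free ganglia, a pattern that 0.528% of all genes show.
Adcyap1 measured 6.13, 3.39 and 6.67 TPM in wild-type and 0.57 and 3.99 TPM in het-labelled MYCN ganglia. The 3 wild-type values exceed all transgene-free ganglia, where counts were at most 22. The share of all genes with that pattern was not counted, so how common it is was not shown. The log2 fold change against wild-type transgene-free ganglia was 4.56 ± 1.44 (unadjusted p = 0.00689, edgeR adjusted p = 0.118).

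The MYCN ganglia differed among themselves in the 6 cell cycle genes, and Cartpt varied beside them. Summed TPM of the cell cycle list was 889.8, 61.9 and 416.5 in wild-type replicates 1, 3 and 4, where Cartpt was 682, 14.3 and 209.3 TPM. In het-labelled replicates 1 and 2 the list summed to 42.6 and 178.5 TPM and Cartpt stood at 31.6 and 112.5 TPM. The order was not the same throughout, since het-labelled replicate 1 had less cell cycle RNA than wild-type replicate 3 but more Cartpt. Runx1t1, at 70.3, 7.90 and 37.4 TPM in the wild-type and 8.83 and 16.9 TPM in the het-labelled libraries, had the order of Cartpt. Tumors held 1031 to 1231 TPM of cell cycle genes, with no matching order of Cartpt among them. Npy did not follow the list in the same way, since wild-type replicate 3, with little cell cycle RNA, had 1606 TPM of Npy beside 1130.1 and 1126 TPM in the other two. Whether dividing cells have a part in either difference was not tested.

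**Figure D4:**
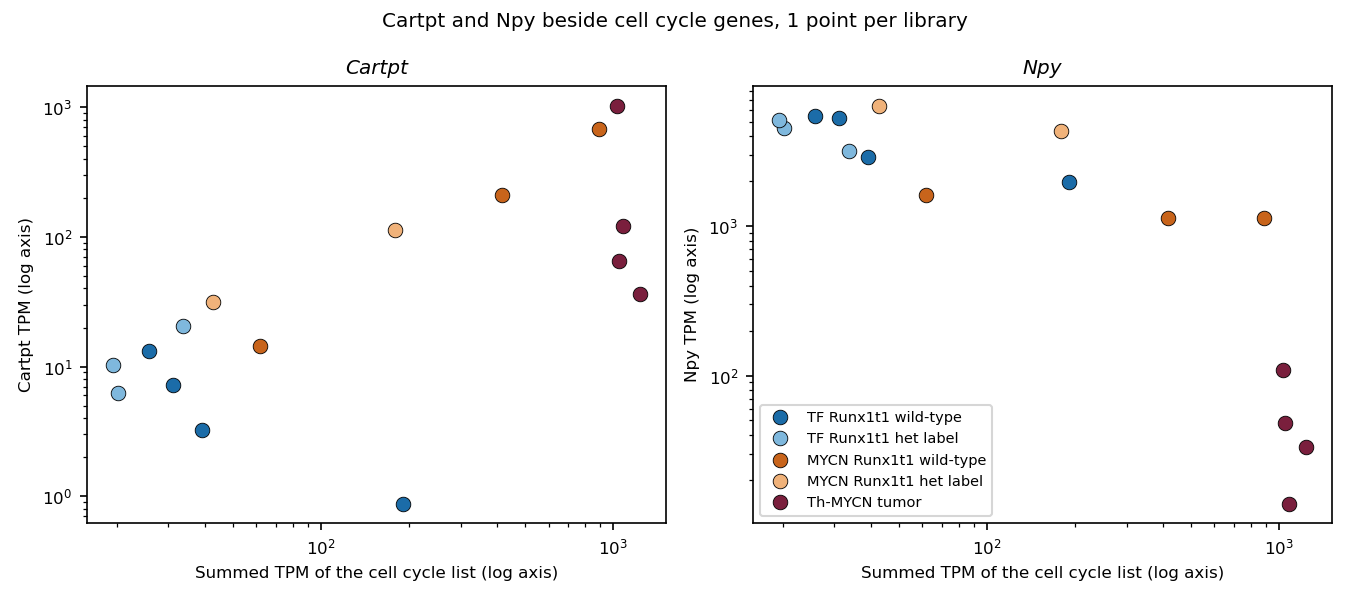
Cartpt (left) and Npy (right) in TPM are drawn against the summed TPM of the 6 cell cycle genes, all on log axes, with 1 point per library and colors for the 5 groups. Among MYCN ganglia the library with the most cell cycle RNA, 889.8 TPM, has the most Cartpt, 682 TPM, while Npy is between 1126 and 1606 TPM in all 3 wild-type MYCN ganglia.

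Several members varied between ganglia together with the cholinergic genes, among them Vip. Slc18a3, the vesicular acetylcholine transporter, was the gene nearest to Vip, out of 14747 with a mean of at least 1 TPM, compared over all 16 libraries, at a root mean square distance of 0.704 between row-centred log2(TPM + 1) values. The 3 cholinergic genes (Slc18a3, Slc5a7 and Chat) summed to 0.83 to 39.5 TPM in transgene-free ganglia, and all 3 fell in tumors, where Slc5a7 was at 0 in every library and the sum was 0 to 2.13 TPM. Across the 7 transgene-free ganglia, Pearson's r between Vip and that sum was 0.899 (exact permutation p = 0.00337, adjusted over 63 relations 0.0375) and Spearman's rho was 0.821 (exact permutation p = 0.0341, adjusted 0.195). It was 0.821 without the lymphocyte-rich library and 0.879 without the 2 libraries farthest from the median of Vip.
The cholinergic sum had a Pearson's r of 0.944 with Gal, 0.912 with Cartpt and 0.887 with Calca (exact permutation p = 0.00694, 0.00496 and 0.00595, each 0.0432 adjusted, n = 7). Spearman's rho was 0.679, 0.857 and 0.786 (exact permutation p = 0.11, 0.0238 and 0.048), and r without the 2 farthest libraries was 0.784, 0.66 and 0.886. With the sum of the noradrenergic genes, r was 0.876 for Gal, 0.858 for Cartpt and 0.723 for Calca. None of these passed (exact permutation p = 0.024, 0.0149 and 0.0331, adjusted 0.0945, 0.0722 and 0.0967). Without the 2 farthest libraries they were -0.00575, 0.921 and -0.135. The relation with the smallest p was that of Gal with Calca (r = 0.929, exact permutation p = 0.000397, adjusted 0.025, and rho = 0.964, exact permutation p = 0.00278, adjusted 0.0876, n = 7), with r = 0.966 without the 2 farthest.
Calca varied with Vip as well (Pearson's r 0.883, exact permutation p = 0.00357, adjusted 0.0375, and Spearman's rho 0.964, exact permutation p = 0.00278, adjusted 0.0876, n = 7), with r = 0.775 once the 2 farthest were left out. Npy varied with the 10 noradrenergic genes (r = 0.928, exact permutation p = 0.00159, adjusted 0.0334, and rho = 0.893, exact permutation p = 0.0123, adjusted 0.155, n = 7), with r = 0.703 without the 2 farthest. Its r with the cholinergic sum was 0.624 (exact permutation p = 0.137, rho 0.321, exact permutation p = 0.498, n = 7) and -0.482 without the 2 farthest, and no difference between correlations was tested. Of the 63 relations, 11 passed the adjusted threshold by Pearson's r and 0 by Spearman's rho, so those named here rest on the size of the values as well as their order. Among the 11 were negative relations of Nts with the noradrenergic genes (r = -0.898, exact permutation p = 0.00258, adjusted 0.0375) and with Cartpt (r = -0.883, exact permutation p = 0.00754, adjusted 0.0432). These relations were computed after the data had been seen, and each library adds its cells of all kinds to both measures. The 7 libraries pool 4 wild-type with 3 het-labelled ganglia, and the permutations did not keep these apart. The cholinergic sum was 0.83 to 26.4 TPM in the wild-type and 18.1 to 39.5 TPM in the het-labelled ones. Calca was 0 to 6.36 and 3.81 to 5.65 TPM in the same order. Whether the Runx1t1 genotype has a part in these relations was not tested.

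**Figure D5:**
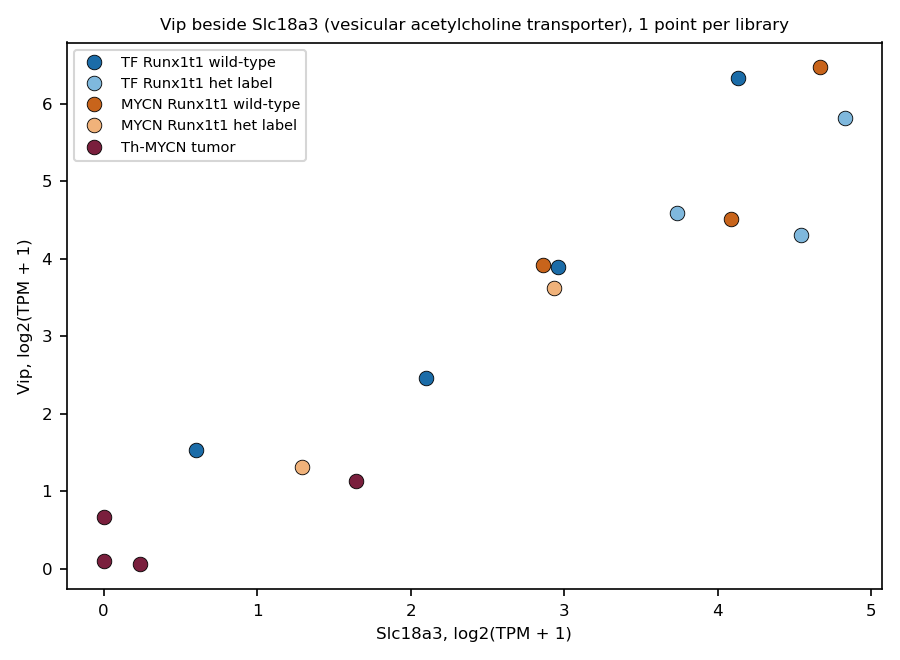
Vip is drawn against Slc18a3, both as log2(TPM + 1), with 1 point per library and colors for the 5 groups. The 4 tumors lie at the lower left with at most 1.19 TPM of Vip and 2.13 TPM of Slc18a3, and the ganglia spread upward from there along both axes.

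By the same distance, the genes nearest to Npy were Hand1, a transcription factor of the sympathetic lineage, Ache, the acetylcholine-degrading enzyme, and Hpcal4, a neuronal calcium sensor, at 0.430, 0.538 and 0.562. Sst was nearest to Adra2a, the inhibitory noradrenaline receptor, at 0.573, followed by Fbxo2 and Scube1. Gal was nearest to Avil at 0.427, an actin-binding protein of peripheral neurons, followed by Aldoc and Chrnb4, a subunit of the ganglionic nicotinic receptor. The nearest to Cartpt, Nfe2l3 at 0.890, Sytl4 and Kcnip1, lay farther from it than those of the others did. The names depend on the pseudocount: with 0.1 in place of 1, the same 3 genes were shared by 0 for Npy, Sst and Penk, 1 for Vip and Gal, and 2 for Cartpt.

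Genes around the 10 members were counted in the same tumor comparison, in which 61.4% of all genes were called, 30.9% lower and 30.6% higher. Of 53 other precursor genes, 21 could be tested, and 5 rose and 5 fell, with a median log2 fold change of -0.87. Npw, the neuropeptide W precursor, rose from 0.101 ± 0.192 TPM (SD, n = 7) to 5.63 ± 1.14 TPM (SD, n = 4, edgeR adjusted p = 9.49e-05). Pomc, the precursor of ACTH and endorphin, rose 4.01-fold (edgeR adjusted p = 0.00155), from 4.18 ± 1.47 TPM to an uneven 12.1 ± 9.16 TPM (SD, same libraries). Pthlh, parathyroid hormone-related protein, fell by 5.05 on the log2 scale (adjusted p = 1.05e-05), and Pdyn, the dynorphin precursor, fell by 4.44 (0.00436). Agrp fell from 4.74 to 0.255 TPM with at most 3 counts in a tumor.
Pnoc, the nociceptin precursor, rose in tumors by 3.50 on the log2 scale (edgeR adjusted p = 0.00868) but was highest in MYCN ganglia. It measured 113.4, 1.5 and 23.4 TPM in wild-type and 4.12 and 19.4 TPM in het-labelled MYCN ganglia, 0 to 1.96 TPM in transgene-free ganglia and 1.62 to 6.65 TPM in tumors. Pnoc was the 1 gene called for the transgene with Runx1t1 wild-type among the 21 precursor, 18 processing and 28 receptor genes tested (log2 fold change 7.97 ± 1.52, edgeR adjusted p = 0.0379). Over all genes 0.936% were called there, so 1 call in these lists is no sign that they stand out. In that comparison no gene was called with the replicate block, with only the compared groups fitted or in libraries over 20000000 counts. The 5 MYCN ganglia stood in the same order for Pnoc as for Cartpt.

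Of 18 genes for precursor processing and dense-core granules, 15 fell, 2 rose and the median log2 fold change was -2.08. Over all genes, 30.9% were called lower and 30.6% higher. Pcsk1, the convertase that cuts precursors at paired basic residues, went from 59.0 ± 16.3 TPM (SD, n = 7) to 0.015 ± 0.0191 TPM (SD, n = 4), with at most 2 counts in a tumor (edgeR adjusted p = 3.53e-08). Scg2, a granin, fell by 3.75 on the log2 scale (7.37e-05) and Cadps, which primes dense-core vesicles for release, fell by 3.11 (2.14e-06). Chgb, the chromogranin B gene, rose 1.87-fold (0.0436) and Ica1 1.65-fold (0.00683).
Of 28 peptide receptor genes tested, 14 fell and 2 rose, with a median of -1.81, beside 30.9% lower and 30.6% higher over all genes. Among them the neuropeptide Y receptors Npy4r and Npy5r went from 10.7 and 1.74 TPM to 0.0425 and 0.005 TPM, with at most 4 counts in a tumor (edgeR adjusted p = 1.61e-06 and 0.000115), and Ramp1, which forms the CGRP receptor with its partner, fell by 6.47 on the log2 scale (2.21e-06). Ntsr2, a neurotensin receptor, rose 36.9-fold (8.35e-05), from 0.337 ± 0.236 TPM (SD, n = 7) to an uneven 9.48 ± 8.87 TPM (SD, n = 4). The other that rose, Sstr5, a somatostatin receptor, had 0, 58, 45 and 6 counts in tumors 1 to 4 and 1 count in the transgene-free ganglia (0.00215), so tumor 1 did not share the rise. Oprk1, the kappa opioid receptor, had 1 to 44 counts in transgene-free ganglia and none in any tumor (0.00017). None of the genes of these 3 lists was called between all MYCN and all transgene-free ganglia. Only 0.042% of all genes were called there, so this says little about the lists.

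Cell type markers moved with the tumor comparison, in which 30.9% of all genes were called lower and 30.6% higher, and are given beside it. Of 10 noradrenergic genes, 6 fell and 3 rose, and their sum was 1531 to 2448 TPM in tumors against 3573 to 10883 TPM in transgene-free ganglia. All 8 glial markers fell, from 557.1 to 2004 TPM down to 13.8 to 21.4 TPM, and all 5 fibroblast markers fell, from 907 to 4369 TPM down to 99.5 to 299.3 TPM. All 6 cell cycle genes rose. Of 9 pan-neuronal genes, 5 fell and Nefm, a neurofilament, rose 3.32-fold (edgeR adjusted p = 0.00287), with a sum of 4139 to 12251 TPM in tumors and 6927 to 19003 TPM in transgene-free ganglia. Prph, the intermediate filament of peripheral neurons, fell by 8.90 on the log2 scale (7.71e-07), while Tubb3, neuronal tubulin, fell by 1.13 (0.00171). Of 5 adrenal cortex genes tested, 4 fell, from a sum of 6.48 to 97.6 TPM to 3.03 to 5.66 TPM. Among 3 enteric neuron genes, Nos1 rose 12.7-fold (1.4e-05) and 2 fell, among them Ret, 9.95-fold (0.000177). Of 4 myeloid genes 1, Cd68, rose 8.02-fold (0.00303). Of 8 sensory neuron markers in the tables, 4 of 5 tested fell. The list summed to 172.3 to 633.6 TPM in transgene-free ganglia and 25.6 to 35.8 TPM in tumors. Over the 12 ganglia, Pirt was at 100.1 to 440.8 TPM and Avil at 27.5 to 191.7 TPM. Scn10a, Scn11a and Trpv1 reached 6.67, 8.85 and 3.62 TPM there. Pou4f1, Prdm12 and Mrgprd were at most 0.52 TPM in every library, and Prdm12 and Mrgprd were at 0 in all tumors. Pnmt, the chromaffin enzyme that makes adrenaline, was at most 6.67 TPM and was not called. How much of each peptide difference goes with these shifts in cell make-up was not tested.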

How the data were processed

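RNA from 12 celiac ganglia and 4 tumors was sequenced by the authors with a stranded total RNA kit and paired reads, aligned to mm10 with STAR and quantified with RSEM, and SAMtools was also named in the submitters' processing notes. The labels give the molecule as polyA RNA. Whether counting used strand is not given in the sources used here. For 24411 genes the authors deposited expected counts that were not normalized, beside TPM that RSEM scales within each library. In the headers Runx1t1 is Het or Hom, and Hom was read as wild-type, as the labels give it.

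Expected counts were rounded. R 4.3.3 with edgeR 4.0.16 (filterByExpr, TMM, quasi-likelihood, all 5 groups in 1 fit) tested 16665 genes in 9 contrasts, with Benjamini-Hochberg adjustment over all genes and a threshold of 0.05. Depth was 10692299 to 38618757 counts per library. DESeq2 1.42.0 was an alternative, with another normalization, filters, a depth term, a replicate block, only the groups compared and each library left out. The script was tested on simulated data. Levels and distances between genes used TPM, log2(TPM + 1) and Python with SciPy. Genes named beside the members are, in each list, up to 3 higher and 3 lower in tumors, taken by fold change from called genes averaging at least 1 TPM over the 16 libraries, and for members with a mean of at least 10 TPM the 3 nearest in pattern; Sstr5, Oprk1, the cholinergic, noradrenergic and marker genes named, and Calca, Th and Dbh ratios, were chosen after their values were seen. Coordinates are from GENCODE vM21 (GRCm38) and promoters from RefSeq. The members and lists were chosen with earlier results of these data known. Near-identical copies, such as Calca and Calcb exons, share reads in RSEM.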

Additional observations from a re-analysis of the deposited data

Results flagged for a closer look

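Within the groups of 4 libraries, 5 of 19 sets of member values had 1 library far from the other 3, by Dixon's test at the 95% level. In 1 of these, Tac1 in tumors, a single count among libraries at 0 meets that test by construction, which leaves 4 of 18 sets, against about 1 of 20 by chance. In tumors, replicate 1 stood apart with 1021 TPM of Cartpt and 5.42 TPM of Adcyap1, and replicate 4 with 0.06 TPM of Tac1, which is a single count. In wild-type transgene-free ganglia, replicate 1 stood apart with 79.8 TPM of Vip and 6.36 TPM of Calca (26 counts). Each set was tested on TPM and not on a log scale.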

How the results depend on the processing

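The number of members called in tumors against transgene-free ganglia was 6 and stayed between 5 and 6 when any 1 library was left out, and was 5, without Penk, with only the groups compared and in libraries over 20000000 counts; it was 4 to 5 (4 with all libraries) against wild-type and 3 to 4 (3) against het-labelled MYCN ganglia. A filter of at least 10 counts in every library left 1 member to test, Npy, so each of these counts became 1. Between MYCN and transgene-free ganglia 0 members were called, and leaving out 1 library gave 0 to 1 (Cartpt), for both genotypes and for wild-type alone; DESeq2 gave 1 and 3. In het-labelled ganglia the count of 0 became 1 (Gal) when only the groups compared were fitted. Without the lymphocyte-rich ganglion and the MYCN ganglion with most cell cycle RNA together, an alternative added after seeing the data, the tumor counts were 6, 4 and 4. Directions turned for values near 0: Nts in tumors was 0.16 with a depth term and 0.68 in libraries over 20000000 counts, where Calca was 0.05; without single libraries Nts ranged from -0.83 to 0.48, Calca from -1.55 to 0.23, Adcyap1 from -0.07 to 2.63 and Cartpt against wild-type MYCN ganglia from -1.67 to 1.94. Library numbers gave no clear sign of pairing, although depth went with the number in the ganglia. The median correlation of same-numbered deviations was -0.0143 over 25 pairs (-0.315 to 0.319), with 7 over 0.1. Over 76 pairs of other numbers it was -0.0213 (-0.324 to 0.324), with 16 over 0.1. Of the libraries, 5 correlated best with their own number. Shared litters or batches were not tested. With the replicate block the members called were 6, 4 and 4 in the tumor comparisons and 0 in the others, and the block changed 1 member's call, Penk against het-labelled MYCN ganglia. Calls over all genes depended on the setting between ganglia: for the transgene with wild-type Runx1t1 there were 156, against 0 with the block, with only the groups compared or in libraries over 20000000 counts, 308 with a depth term and 1285 with DESeq2, and 0 to 1811 with 1 library left out (0 without transgene-free replicate 1, 3 or 4 or MYCN replicate 1 or 4, 675 and 1811 without transgene-free replicate 2 and MYCN replicate 3, 1 to 24 without a het-labelled transgene-free ganglion and 13 to 109 without a tumor); over both genotypes there were 7, against 0 with the block and 356 with DESeq2, and for het-labelled against wild-type MYCN ganglia 2, against 264 with DESeq2. The cause was not tested. TPM rescaled without Rn45s moved no member's group mean by more than 1 SD. Contrasts with het-labelled MYCN ganglia could not be fitted in libraries over 20000000 counts, since both are under that depth.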
